A study of Mus musculus with 20 samples.

Results

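The regressed prostate was described by setting 5 mice castrated for 14 days against 5 sham-treated mice, chosen by their labels alone. These are 10 of the 20 samples in the series. All were C57/B6 mice of 10 to 12 weeks, and each array held the prostate RNA of 1 mouse, hybridised to an Affymetrix mouse expression array, which reads each transcript through 1 or more probe sets. The other 10 samples came from mice castrated for 3 days and from mice castrated for 14 days and then given a 15 mg testosterone pellet for 3 days. The time between sham treatment and tissue collection was not stated, and no lobe was named, so the values are those of the gland as dissected. In such whole tissue, fewer cells of a type and less RNA per cell cannot be told apart. The p-values judge each change against the spread between separate mice within groups, pooled over all 4 groups. That spread also holds differences in array quality.

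The prostate is a secretory gland whose luminal epithelium depends on androgen made by the testis. Androgen binds a nuclear receptor in both epithelium and stroma, and the luminal cells fill the ducts with proteins, zinc and citrate under its control. After castration the luminal cells die or shrink, the ducts collapse, and what remains is richer in basal cells, fibromuscular stroma, vessels and resident immune cells.

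Signals are on a linear scale, and changes are differences of log2(signal + 12.7), castrated minus sham, so that a change of 1 is a doubling on that scale. The change understates the fold of genes with low signals. Of the 12422 probe sets that were not array controls, 6911 passed a filter on low values and were tested with limma, with adjusted p-values by the Benjamini-Hochberg method over all of them. In all, 1979 probe sets (28.6%) were higher in the castrated glands and 1679 (24.3%) were lower at an adjusted p under 0.05, together 52.9%, and 574 and 368 of these changed at least 2-fold. With 1 probe set for each of 5371 genes, 30.4% were higher and 23.8% lower. These shares are the background for every count of list members below that uses all arrays. The values of the groups did not overlap for 1339 higher probe sets (19.4%) and 1083 lower ones (15.7%). The median change over all genes was 0.04, and all but the lowest and highest 5% of genes lay between -0.98 and 1.33.

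Array quality was uneven within the castrated group. The log2 ratio of the 3' to the 5' control probe set for Gapdh, which rises when RNA is degraded or copied incompletely, was 2.05 and 1.82 on castrated replicates 4 and 5, and between -0.39 and -0.13 on the 5 sham arrays. The same ratio for actin differed less, at 0.73 and 0.80 on castrated replicates 4 and 5. It was 0.31 to 0.51 on castrated replicates 1 to 3 and 0.37 to 0.68 in sham. The mean Gapdh ratio differed by 0.902 between the groups, with an exact two-sided permutation p of 0.119, where 5 against 5 arrays allow no p below 0.00794. Without castrated replicates 4 and 5, 1658 probe sets were higher and 1379 lower. With 1 probe set per gene, 25.3% of genes were then higher and 19.5% lower. Those shares are the background for list counts given below without these 2 arrays. Of the 3658 calls made with all arrays, 2869 (78.4%) were also called in the same direction without these 2 arrays, all had the same sign, and none was called in the opposite direction. Both fits share 8 of the 10 arrays compared and all arrays of the other groups, so this is a description and not a second test. Of the 942 calls of at least 2-fold, 876 (93.0%) were called without castrated replicates 4 and 5. Testosterone replicates 2 and 5, which also enter the pooled spread, had log2 Gapdh ratios of 4.54 and 3.93. Without all arrays of high ratio in any group, 1812 probe sets were higher and 1607 lower. Castrated arrays correlated with each other at r between 0.896 and 0.981 across probe sets, the lowest being replicates 3 and 5, and with sham arrays at a mean of 0.823. Array titles carry running numbers that follow the groups, with a gap before the castrated group, so a batch that runs with the groups cannot be told apart from castration.

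**Figure D1:**
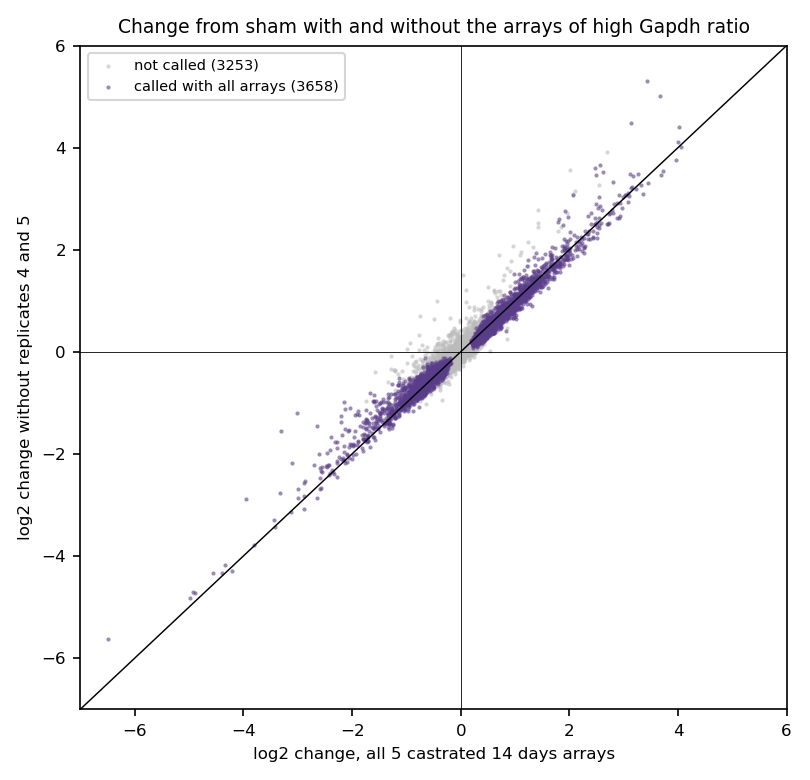
Log2 change from sham with all 5 arrays of mice castrated for 14 days (horizontal) against the change without replicates 4 and 5 (vertical), 1 point per probe set tested. The diagonal marks equal values; the 3658 called probe sets lie along it on the same side of 0 on both axes, and 12 of them moved by more than 1.

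Several secreted products of the gland had large falls. Of 18 tested members of a list of prostate secretory proteins, 10 were lower and 5 higher, with a median change of -0.56. Msmb encodes beta-microseminoprotein, a small protein of prostatic fluid. Its signals were 11655, 9931, 9253, 12940 and 8835 on the sham arrays, and 236.1, 153.6, 211.1, 41.4 and 29.1 on the castrated arrays. Every castrated gland was far below every sham gland, and replicates 4 and 5 were the lowest. The change was -6.49 (SE 0.449, adjusted p = 1.09e-09 by limma), 89.9-fold on the transformed scale, the deepest fall among the genes named by rule, and -5.63 without replicates 4 and 5.

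Fcgbp, a large mucus-associated protein, gave signals of 16002, 18962, 22391, 19897 and 21587 in sham glands and of 862, 574.1, 1780, 1310 and 584 after castration. The groups were again far apart, and the change was -4.39 (SE 0.225, adjusted p = 2.96e-11). Pbsn encodes probasin, the androgen-controlled secretory protein whose promoter is widely used to drive prostate transgenes. Its signals were 14180, 17332, 17772, 18101 and 17137 in sham glands and 4413, 3786, 4930, 5992 and 5396 after castration. No values overlapped, and the fall was smaller than that of Msmb, at -1.80 (SE 0.116, adjusted p = 4.66e-10).

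Sbp, a spermine-binding secretory protein, separated the castrated glands from one another. Sham signals were 12780, 17202, 16895, 9434 and 17809, and the castrated ones 6956, 6348, 5543, 716.9 and 88.7. The call was a fall of 3.01 (SE 0.789, adjusted p = 0.00345), which became -1.98 without replicate 5 and -1.20 (adjusted p = 0.00014) without replicates 4 and 5. Azgp1, a zinc-binding secreted glycoprotein, changed by -2.58, Apof, an apolipoprotein, by -2.48, and Mme, the membrane peptidase neprilysin, by -2.65. Mme signals were 157.3, 100.1, 227.6, 9.2 and 7.9 in the castrated glands against 321.6 to 633.2 in sham, so that replicates 4 and 5 again stood lowest, and without them the change was -1.46.

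Egf, which the mouse prostate makes in quantity as a secreted growth factor, had sham signals of 4671, 7383, 6856, 7854 and 6527 and castrated signals of 1579, 1399, 1909, 752.7 and 439.4. The groups did not overlap, and the change was -2.60 (SE 0.28, adjusted p = 3.32e-07), or -2.01 without castrated replicates 4 and 5. Agr2, a disulfide isomerase of mucus-secreting cells, went from 9631, 9017, 7850, 11198 and 9078 to 1544, 1534, 1739, 958.5 and 820. That change was -2.86 (SE 0.161, adjusted p = 9.49e-11). Ptgs2, the inducible cyclooxygenase, fell by 3.44 with every castrated signal at 44.1 or less against at least 230.1 in sham. Mcoln2, an ion channel of the mucolipin family, fell by 3.12 and stood at 81.2 to 100.8 after castration against 686.7 to 1229 in sham. Traf1, an adaptor of tumour necrosis factor receptors, fell by 2.89, from 295.2 to 400.3 down to 22.6 to 79.2.

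**Figure D2:**
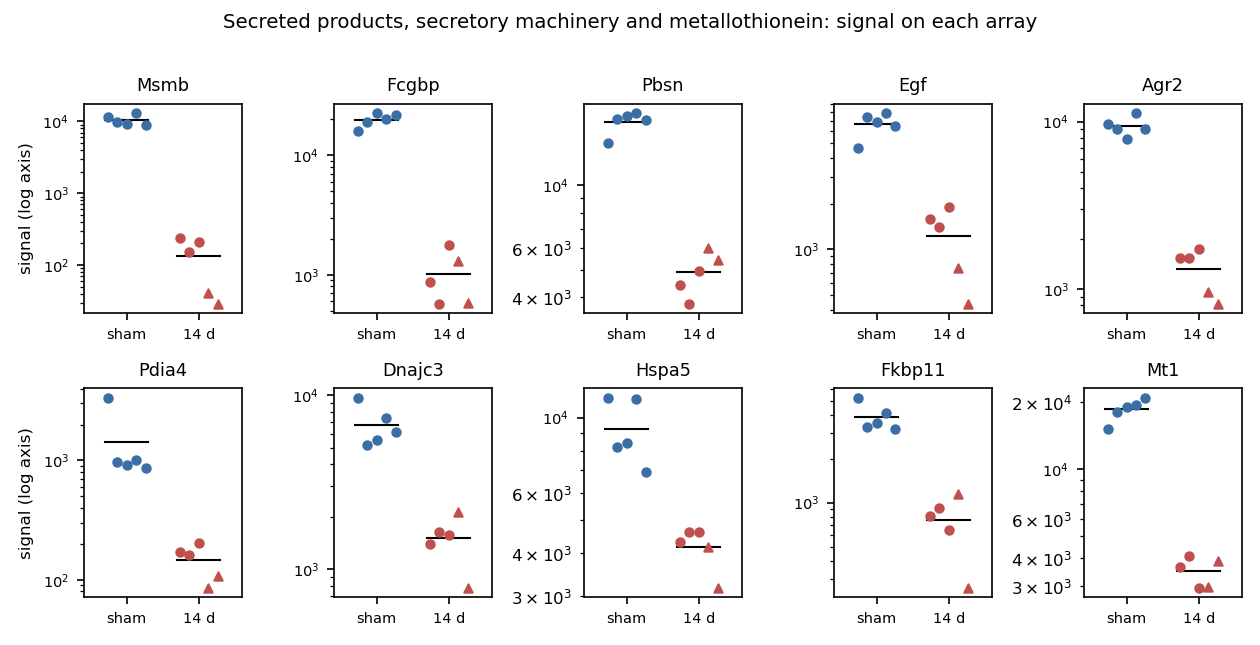
Signal on each array (log axis) for 10 genes of secretion and metal binding in sham (blue) and castrated 14 days (red) glands; the black line is the mean of 5 mice and triangles mark castrated replicates 4 and 5, whose Gapdh ratio was high. In every panel all 5 castrated points lie below all 5 sham points.

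The 5 secretory genes that were higher had other known roles. Clu encodes clusterin, a secreted chaperone long used as a marker of the regressing prostate. Its signals rose from 4551, 5589, 6832, 4732 and 8470 to 14089, 15520, 11699, 17744 and 13807, a change of 1.30 (SE 0.167, adjusted p = 3.07e-06) with no overlap. Wfdc2, a protease-inhibitor-like protein, rose by 1.68 (adjusted p = 0.0104). Lcn2, a siderophore-binding protein of innate defence, and Ltf, the iron-binding lactoferrin, passed the threshold at 1.80 (adjusted p = 0.0164) and 1.35 (adjusted p = 0.0148) with overlapping groups. Castrated replicate 5 lay below every sham gland for Lcn2 (244.5) and within the sham range for Ltf (66.7). Without replicate 5 the Lcn2 change was 2.64, and without replicate 1 or replicate 4 it was 1.52 or 1.51 and no longer called. A second probe set for Lcn2 was called lower (-0.45). The fifth, Mfge8, a milk-fat-globule protein that bridges dying cells to phagocytes, rose by 0.37 (adjusted p = 0.0245). That call was lost without any 1 of sham replicates 4 and 5 or castrated replicates 1 to 3 (0.29 to 0.35).

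Genes of seminal vesicle secretion were also read in these glands, and all 5 tested members fell, with a median of -2.15. Svs5 signals were 17792, 17819, 19111, 19818 and 21310 in sham and 4405, 8586, 4024, 8142 and 1198 after castration, a change of -2.15 (SE 0.338, adjusted p = 3.15e-05). Svs2 fell by 2.12, a value set by castrated replicate 5 (151.1, the others 7558.5 to 12288.8): without that array the change was -0.97 (adjusted p = 2.65e-06). Svs4 changed by -1.42.

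The remaining members, Ceacam10 and Svs6, varied widely among sham glands. Svs6 signals were 6124, 327.9, 530.1, 1881 and 329.5 in sham and 26.1, 190, 5.1, 79.8 and 3.7 after castration. Sva, the seminal vesicle antigen, was at 13381, 201.7, 619.2, 1529 and 185 in sham and at 6.3 to 33.8 after castration. Sham replicate 1 was the highest in each of these genes, and without it the changes were -3.67 for Svs6, -3.94 for Sva and -3.88 for Ceacam10, against -4.34, -4.92 and -4.90 with it. The Ceacam10 change was -4.25 without sham replicate 4, -5.50 without sham replicate 2 and -5.58 without sham replicate 5. The 5 listed members sum to 49480 to 69860 in sham and 3175 to 32150 in castrated glands. The part of seminal vesicle tissue in the fall of secreted products was not tested. None of the 12 kallikrein genes on the array passed the filter.

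Most tested genes of the machinery that makes secreted proteins were lower. Of 25 folding enzymes and chaperones of the endoplasmic reticulum, 20 were lower and 2 higher, with a median change of -0.93. Pdia4, a disulfide isomerase, had sham signals of 3355, 972.5, 915.4, 999.1 and 859.3 and castrated signals of 169.7, 161.8, 204.3, 85.6 and 107.5. The change was -3.00 (SE 0.496, adjusted p = 5.24e-05), with no overlap. Hspa5, the abundant luminal chaperone BiP, went from 11446, 8190, 8420, 11371 and 6935 to 4320, 4624, 4614, 4160 and 3165. Its change of -1.13 (SE 0.157, adjusted p = 7.46e-06) was smaller than that of Pdia4 and equally free of overlap.

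Fkbp11, a prolyl isomerase of secretory cells, changed by -2.46, Creld2, a stress-induced folding factor, by -2.34, Dnajc3, a co-chaperone of BiP, by -2.20, and Hsp90b1, the chaperone GRP94, by -1.37. Sham replicate 1 held by far the highest Creld2 signal (12261, the other sham glands 2094 to 3167) and the highest Pdia4 signal. Pdia6, another disulfide isomerase, fell by 2.39 (adjusted p = 0.00344), and without castrated replicates 4 and 5 the change was -1.67 (adjusted p = 0.0536) and no longer called. The members that were higher were Prdx4, a peroxiredoxin of the endoplasmic reticulum, at 0.91 (adjusted p = 8.44e-05), and Cnpy2 at 0.26 (adjusted p = 0.0365). The Cnpy2 call was lost when any 1 of sham replicates 1 to 4 or castrated replicates 2, 4 and 5 was left out, with changes of 0.22 to 0.27.

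Neighbouring steps of the pathway moved the same way. Of 17 genes of the unfolded protein response and of degradation, 10 were lower and none higher at an adjusted p under 0.05 in limma (median -0.90), among them Atf6, the membrane-bound stress sensor, at -2.09, Os9, a lectin for misfolded glycoproteins, at -2.32, and Edem2 at -1.79. In protein translocation and signal peptide removal 14 of 17 were lower and none higher (median -0.67), among them Sec61a1, the channel subunit, whose signals fell from 6425 to 7448 down to 2296 to 3268. Of 23 N-glycosylation genes, 16 were lower and none higher (median -0.72), including the mannosidases Man1a (-2.27) and Man2a1 (-1.59) and Nans, a sialic acid synthase (-1.62).

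Vesicle transport between endoplasmic reticulum and Golgi had 28 of 34 members lower (median -0.58), for example Rab3d, a GTPase of secretory granules (-1.36), and Lman1, a cargo receptor (-1.29). Its higher members were Rab6a (0.52, with 0.05 on another probe set) and Tmed9 (1.02, adjusted p = 0.0426). The Tmed9 call ended when any single array except sham replicates 2 and 3 was left out, with changes of 0.75 to 1.05. Amino acid supply and aminoacyl-tRNA synthetases had 19 of 25 members lower and none higher (median -0.99). Mthfd2, a mitochondrial folate enzyme, fell by 2.44, Slc7a5, a large neutral amino acid transporter, by 2.16, and Wars, the tryptophan synthetase, by 2.28. Wars had -0.66 and -1.71 on other probe sets, and -1.77 on its brightest without castrated replicates 4 and 5. Its castrated replicate 3 read 3057.8, the other castrated glands 447.6 to 879.0. Slc7a5 signals were 880.7, 926.1, 837.5, 750.2 and 935.5 in the castrated glands against 3269 to 5018 in sham.

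**Figure D3:**
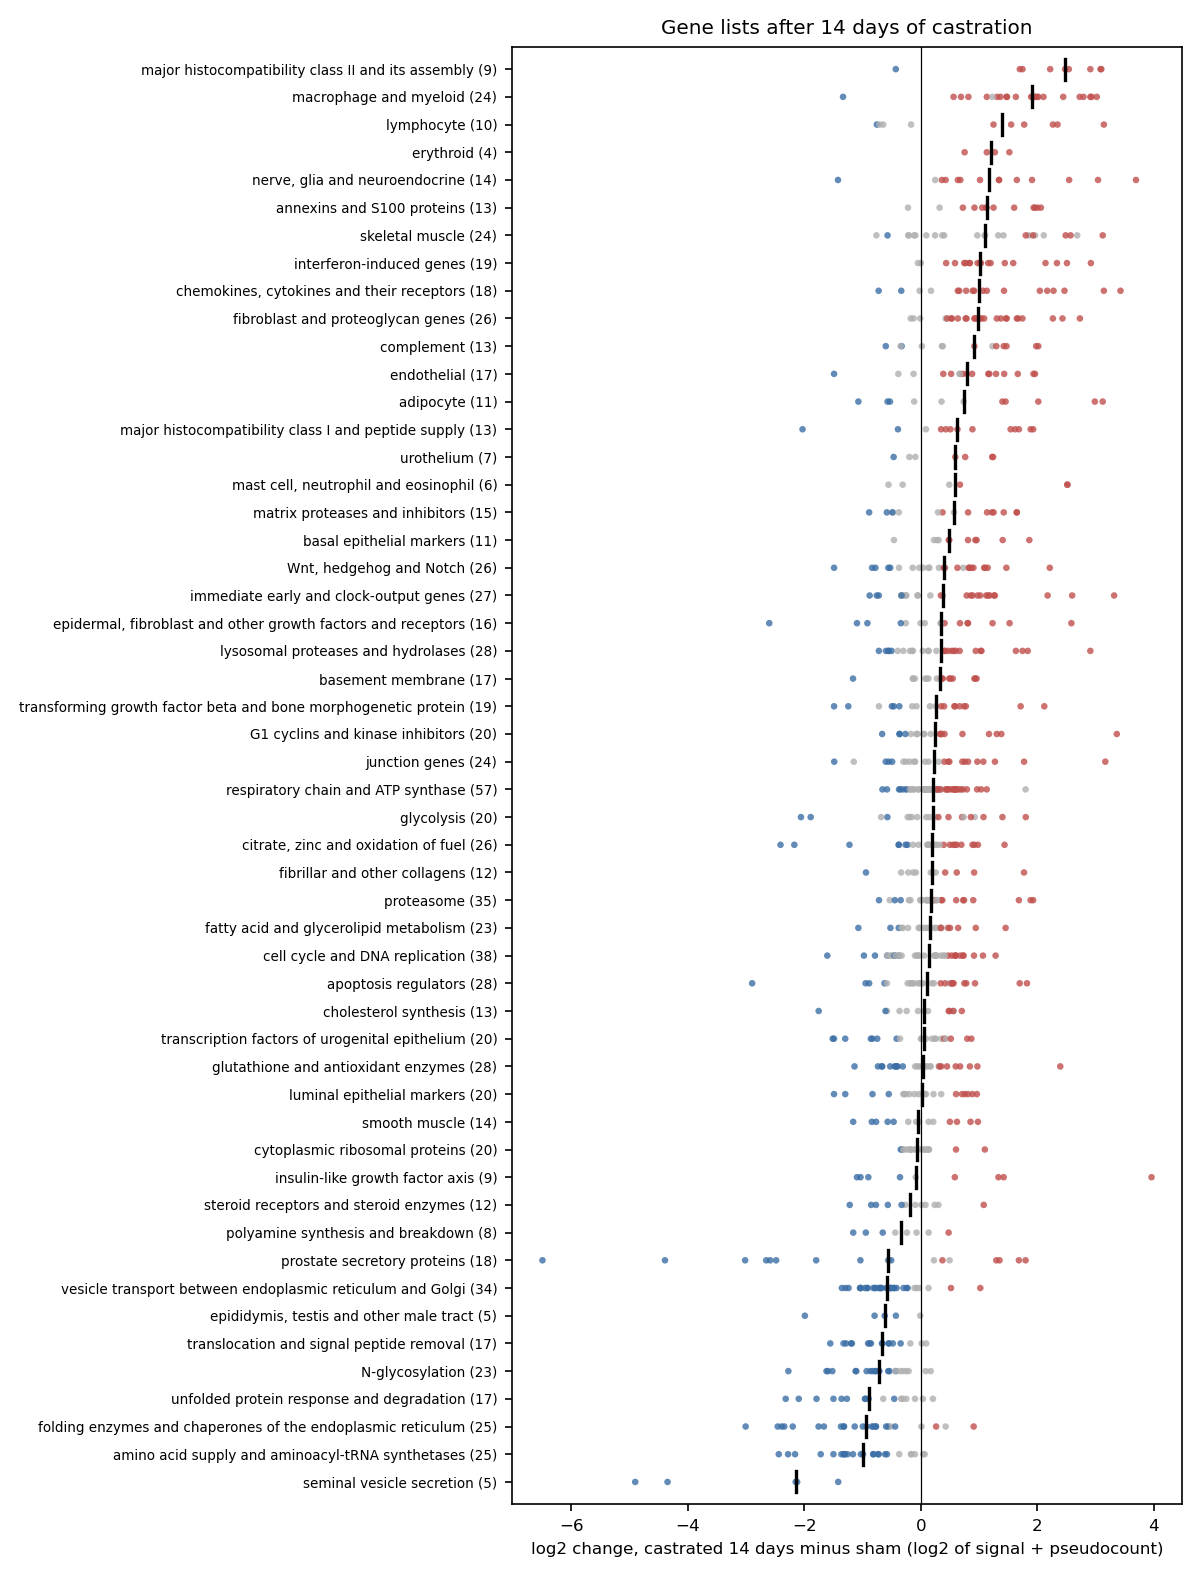
Log2 change of every tested member of the gene lists (1 row per list, the number tested in brackets), ordered by median, which is the black bar. Red and blue points are members called higher and lower at an adjusted p under 0.05 and grey points are not called; seminal vesicle genes lie at the bottom, the secretory machinery just above them with medians of -0.58 to -0.99, and class II antigen presentation at the top with 2.48.

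The promoters of the folding genes were searched for the endoplasmic reticulum stress element, to which stress-responsive factors are known to bind. The letters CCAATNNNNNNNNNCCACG were sought on both strands from 250 bases before to 50 bases after the start site in RefSeq promoters of GRCm38.p6. They occurred in 0.119% of 32851 promoters and in 9 of 4353 tested genes with a promoter in the table (0.207%). Of 1302 higher genes none held a match, and of 1046 lower genes 7 did (0.669%). At 2-fold or more these were 0 of 349 and 5 of 205 (2.44%). Of 23 folding genes with a promoter, 7 held one (30.4%). Of these 7, 5 were called lower. Of all 25 tested folding genes, including those without a promoter, 20 were. A count of calls does not compare the size of the falls. The same 5 genes make up the 5 of 205 called lower at least 2-fold, so that share is not a separate result. Whether carriers fell more than other folding genes was not tested. The capitals mark the fixed letters in the 7 genes, and each copy is written 5' to 3' on the strand given.

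Hspa5, chr2:34772025-34772043, plus strand: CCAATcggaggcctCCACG
Hsp90b1, chr10:86705638-86705656, minus strand: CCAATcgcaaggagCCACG
Hsp90b1, chr10:86705533-86705551, plus strand: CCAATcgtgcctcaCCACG
Pdia6, chr12:17266491-17266509, plus strand: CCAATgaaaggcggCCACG
Dnajc3, chr14:118937827-118937845, plus strand: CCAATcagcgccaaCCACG
Creld2, chr15:88819520-88819538, minus strand: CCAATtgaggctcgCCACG
Canx, chr11:50325800-50325818, minus strand: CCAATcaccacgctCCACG
Ero1b, chr13:12565682-12565700, minus strand: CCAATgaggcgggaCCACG

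Of the 7 genes, Hspa5, Hsp90b1, Pdia6, Dnajc3 and Creld2 were called lower. Canx, a lectin chaperone, had a change of 0.01 (adjusted p = 0.945) on its brightest probe set and -0.53 on another, which was called lower. Ero1b, an oxidase that recharges disulfide isomerases, had -0.52 (adjusted p = 0.157), with sham replicate 1 and castrated replicate 5 apart from the rest. The same letters therefore occurred in genes with large and with no called change. The Hspa5 promoter, the 250 bases before the start site at chr2:34771840-34772089 on the plus strand, is given whole, with the same letters in capitals.

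Hspa5: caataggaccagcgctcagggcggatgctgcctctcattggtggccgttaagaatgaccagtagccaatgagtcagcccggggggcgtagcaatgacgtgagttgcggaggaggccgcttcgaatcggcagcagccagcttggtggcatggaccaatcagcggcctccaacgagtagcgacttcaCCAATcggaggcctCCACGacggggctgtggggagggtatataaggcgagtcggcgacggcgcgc

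The hexamer AGAACA, the core that androgen and related steroid receptors bind, was searched on both strands of the same windows. It occurred in 15.0% of tested genes, in 14.7% of 1046 lower and in 15.9% of 1302 higher ones. Among genes that changed at least 2-fold it was found in 15.1% of 205 lower and 20.6% of 349 higher ones, and no test of these shares was made. Of 15 secretory protein genes with a promoter, 6 held it (40.0%). Of these Pbsn, Sbp, Azgp1 and Ceacam1, an adhesion molecule (-1.04), fell. Pigr, the receptor that carries immunoglobulins across epithelium, had -0.56 (adjusted p = 0.262), and Cst3, a cysteine protease inhibitor, had 0.23 (adjusted p = 0.117). The full palindrome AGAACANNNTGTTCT, which contains the hexamer, was found in 1 of 4353 tested genes. The copies of the hexamer in the 6 secretory genes are given with their flanking bases, since carriers both fell and were not called.

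Pbsn, chrX:77853585-77853600, minus strand: gatgcAGAACActgct
Sbp, chr17:23941849-23941864, minus strand: ctttgAGAACAtttaa
Azgp1, chr5:137981530-137981545, minus strand: ccgggAGAACAgtcta
Ceacam1, chr7:25477751-25477766, plus strand: gttctAGAACAtactc
Ceacam1, chr7:25477745-25477760, minus strand: gttctAGAACActgaa
Pigr, chr1:130826565-130826580, plus strand: aggggAGAACAaaagg
Cst3, chr2:148875720-148875735, minus strand: tggtaAGAACAgaaag
Cst3, chr2:148875602-148875617, minus strand: aggcaAGAACAgacta

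Metal binding and citrate metabolism changed in parts. The prostate concentrates zinc and exports citrate, and metallothioneins buffer zinc inside the cell. Mt1 signals were 15208, 18132, 19118, 19435 and 20981 in sham and 3643, 4104, 2937, 2963 and 3884 after castration, a change of -2.41 (SE 0.12, adjusted p = 1.95e-11). Mt2 changed by -2.17 (SE 0.095, adjusted p = 3.51e-12), and neither gene's groups overlapped. In the list of citrate, zinc and fuel oxidation genes, 10 of 26 were higher and 7 lower (median 0.20), and without castrated replicates 4 and 5 the counts were 10 and 4. Slc25a1, the carrier that moves citrate out of mitochondria, fell by 1.22 (-0.83 without castrated replicates 4 and 5, with an adjusted p of 0.0811), whereas Idh1, cytosolic isocitrate dehydrogenase, rose by 1.44, from 709.1 to 1009 up to 2097 to 3013.

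Polyamine synthesis, for which the prostate is known, had 3 of 8 members lower (median -0.34): Srm, spermidine synthase (-1.16), Arg2, an arginase (-0.94), and Odc1, ornithine decarboxylase (-0.65, adjusted p = 0.000419). Sat1, which breaks polyamines down, passed at 0.48 (adjusted p = 0.0419), and that call was lost without any 1 of sham replicates 1 to 4 or castrated replicates 1, 4 and 5 (0.36 to 0.50). Of 28 glutathione and antioxidant genes, 8 were higher and 10 lower (median 0.04). Gstt1, a glutathione transferase, went from 235.5 to 716.4 up to 1733 to 2588 (2.39), and Gpx3, a secreted peroxidase, fell by 1.14.

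With all arrays, lipid and sugar metabolism had shares of higher members near the background of 30.4%. Cholesterol synthesis had 4 of 13 members higher and 2 lower (median 0.06), with Hmgcs1 at 0.70 and Mvd at -1.75. Fatty acid genes had 7 of 23 higher and 3 lower (median 0.16), led by Lpl, lipoprotein lipase, at 1.46. Glycolysis had 7 of 20 higher and 3 lower (median 0.21), and 9 and 3 without castrated replicates 4 and 5. Its largest rise was Eno3 at 1.80 (adjusted p = 0.0282), or 2.61 without these 2 arrays. Castrated Eno3 signals were uneven, at 2582, 3426, 5021, 1518 and 495.2 against 233.8 to 1567.5 in sham. Pfkfb3, which sets the level of the activator of phosphofructokinase, fell by 2.06, and Bpgm, bisphosphoglycerate mutase, by 1.89. Among steroid-related genes 5 of 12 were lower and 1 higher (median -0.18). Fkbp5, a co-chaperone induced through steroid receptors, went from 2521, 2004, 1485, 1528 and 1197 to 760.5, 590.8, 843.2, 737.7 and 683.5, a change of -1.22 (SE 0.148, adjusted p = 1.45e-06). Ncoa1, a receptor coactivator, changed by -0.85, and Hsd11b1, which regenerates active glucocorticoid, was the member that rose (1.08).

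Markers of luminal epithelium were called in both directions. Of 20 tested, 6 were higher and 4 lower, with a median of 0.02, against a background of 30.4% and 23.8%. Krt8, a keratin of simple epithelia, had signals of 3037, 3531, 3437, 3526 and 4494 in sham and 6662, 6261, 5335, 8038 and 9240 in castrated glands. It rose by 0.96 (SE 0.135, adjusted p = 8.49e-06), its partner Krt18 had a change of 0.22 (adjusted p = 0.230), Krt19 rose by 0.88 and the adhesion molecule Epcam by 0.71. Cdh1, the cadherin of epithelial junctions, had -0.30 (adjusted p = 0.0825).

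The luminal genes that fell were regulators and a claudin: Spdef, a factor of secretory differentiation (-1.49), Ehf, an epithelial ETS factor (-1.30), Hoxb13, a homeobox factor of the prostate (-0.83), and Cldn8 (-0.55, and -0.41 with an adjusted p of 0.0963 without castrated replicates 4 and 5). Foxa1, a pioneer factor of luminal cells, had 0.09 (adjusted p = 0.460). Over 20 transcription factors of urogenital epithelium, 7 were lower and 4 higher (median 0.05; 2 higher without castrated replicates 4 and 5), with Hoxd10 the lowest at -1.51.

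Basal epithelial genes were higher in 7 of 11 tested and lower in none (median 0.49). Trp63, the transcription factor of basal cells, rose from 328.9, 247.1, 233.9, 246.7 and 195.5 to 363.1, 416.5, 448.1, 429 and 582.9 (0.81, SE 0.136, adjusted p = 6.53e-05). Col17a1, a hemidesmosome collagen, rose by 1.86 and Sfn, a 14-3-3 protein of stratified epithelium, by 1.41. The basal keratins Krt5 and Krt14 stayed below the filter, with signals of 8.6 to 96.9 in sham and 9.9 to 77.8 in castrated glands over both genes, so the label of basal cells rests on other markers here.

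Cell junction genes split, with 11 of 24 higher and 4 lower (median 0.22). Gja1, a gap junction connexin, went from 390.9, 347.2, 353.6, 384.5 and 342.6 to 1128, 1081, 1100, 1422 and 1737 (1.77, SE 0.147, adjusted p = 1.15e-08), while Gjb2, another connexin, fell by 1.49 and Jup, plakoglobin, by 0.60. Cdh13, a cadherin anchored by lipid, was at 13.5 to 47.6 in sham and at 232.5 to 423.2 after castration (3.17). Annexins and S100 proteins, which bind calcium, were higher in 11 of 13 and lower in none (median 1.13), with Anxa3 at 2.06, Anxa1 at 2.00 and Anxa8 at 1.96.

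Stroma moved in different ways by cell type. Smooth muscle genes had 4 of 14 members higher and 5 lower (median -0.05). Acta2, smooth muscle actin, had signals of 5494, 4395, 4101, 6107 and 4896 in sham and 5005, 5459, 4470, 6482 and 5967 after castration, overlapping throughout (0.13, SE 0.139, adjusted p = 0.433). Tagln, an actin-binding protein of smooth muscle, was at 8531, 8670, 9494, 8599 and 8840 and then 5828, 5820, 4610, 5608 and 4249. That fall of 0.77 (SE 0.091, adjusted p = 1.12e-06) was free of overlap, as were those of Myh11, smooth muscle myosin (-0.57), Cnn1, calponin (-0.84), and Actg2, the enteric actin (-1.16). Castrated replicate 5 was the lowest of its group for all 4 of these. Cnn2, a calponin of non-muscle cells, was the largest rise of the list (0.98).

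Fibroblast and proteoglycan genes were higher in 22 of 26 and lower in none (median 0.99). Tcf21, a transcription factor of mesenchyme, went from 332.5, 186.6, 250.5, 202.8 and 263.7 to 1541, 1789, 1602, 1701 and 1776, a change of 2.73 (SE 0.179, adjusted p = 5.53e-10). Lum, lumican, a small proteoglycan of collagen fibres, rose from 437.1 to 907.3 up to 3310 to 4066 (2.43), and Thy1, a surface protein of fibroblasts and T cells, by 2.27. Dcn, decorin, already high in sham at 7335 to 10191, changed by 0.52.

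Fibrillar and other collagens were higher in 4 of 12, a share close to the 30.4% of all genes: Col14a1 (1.77), Col3a1 (0.92), Col1a2 (0.62, with -0.26 on another probe set) and Col6a1 (0.42). Basement membrane genes were higher in 9 of 17 and lower in 1, and without castrated replicates 4 and 5 in 6 and none. The laminin chain Lamb3 rose most (0.96). The member that fell was Hspg2 (-1.16, adjusted p = 0.00405). Its call was lost without these 2 arrays (-0.65, adjusted p = 0.0684). Among matrix proteases and inhibitors 8 of 15 were higher and 3 lower. Plat, tissue plasminogen activator, and Serpinf1, an inhibitor-like factor, each rose by 1.65, and Mmp7, matrilysin, changed by -0.89 with overlapping groups.

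Vessel and nerve genes were more often higher than the background of 30.4%, with no test of that excess. Endothelial genes were higher in 12 of 17 and lower in 1 (median 0.79). Cldn5, the claudin of endothelial junctions, rose from 60.6 to 128.9 up to 360.3 to 441.4 (1.96), Cd93 by 1.93 and the water channel Aqp1 by 1.66, and Notch4 was the one that fell (-1.49). Pecam1, the standard endothelial marker, had 0.67 (adjusted p = 0.0986).

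Nerve, glial and neuroendocrine genes were higher in 12 of 14 and lower in 1 (median 1.18). Cadps, a factor for release of dense-core vesicles, went from 54.2, 88.5, 77.1, 75.8 and 127.2 to 1123, 1025, 937.6, 1446 and 1650, a change of 3.69 (SE 0.21, adjusted p = 1.15e-10). Snap25, a vesicle fusion protein of neurons, rose by 3.04, Prph, peripherin of peripheral neurons, by 2.54, and the neurofilament Nefh fell by 1.42. Several of these genes have fewer than 100 units of signal in most sham glands, where the change depends on the pseudocount.

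The 3 lists with the highest medians were those of class II antigen presentation, macrophages and lymphocytes. Without castrated replicates 4 and 5 the skeletal muscle median (2.00) was above that of macrophage genes (1.79). Class II antigen presentation was higher in 8 of 9 tested members (median 2.48). H2-Aa, a class II chain, had sham signals of 617.7, 590.4, 479.6, 426.9 and 546.4 and castrated signals of 5714, 3888, 3134, 5121 and 5569. The change was 3.08 (SE 0.167, adjusted p = 6.17e-11), H2-Ab1 changed by 3.10, and Cd74, the invariant chain, by 2.22. Ifi30, a lysosomal thiol reductase, was the one called lower, at -0.43 (adjusted p = 0.0421). Its call was lost without any 1 of sham replicates 1, 3 and 4 or castrated replicates 1 to 4 (-0.46 to -0.29).

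Macrophage and myeloid genes were higher in 22 of 24 (median 1.90). Lgals3, galectin 3, went from 161.9, 190.1, 227.9, 144.7 and 181.7 to 1662, 1522, 1602, 1301 and 1664, a change of 3.02 (SE 0.156, adjusted p = 3.02e-11). Ctss, a lysosomal protease of antigen-presenting cells, rose by 2.91, Aif1 by 2.93, Csf1r, the receptor for macrophage growth factor, by 2.11, and Cd68 by 1.63. The defining macrophage marker Adgre1 stayed below the filter at 14.1 to 28.5 in sham and 139.7 to 298.7 in castrated glands. Cd52, which the male tract also makes, fell by 1.33. Among lysosomal enzymes 14 of 28 were higher and 5 lower (median 0.34), with Ctsh at 1.84 and Lgmn at 1.75 above and Gaa at -0.72 below.

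Lymphocyte genes were higher in 6 of 10 (median 1.40). Ighm, the immunoglobulin mu chain, rose by 2.35 and was uneven, at 5273, 1408, 2228, 1183 and 1851 in castrated glands against 327.8 to 440.3 in sham. Igkv6-23, an immunoglobulin light chain, had the same high replicate 1 (6720, the others 917.5 to 2919) and rose by 3.26. Ms4a1, the B cell antigen CD20, fell by 0.75. Cd3e, the T cell receptor chain, stayed below the filter, at 27.4 to 51.3 after castration. Of 6 mast cell and granulocyte genes, 3 were higher and none lower (median 0.58): the mast cell proteases Cpa3 (2.52) and Cma1 (2.51), and their growth factor receptor Kit (0.67). Kitl, the ligand of that receptor, also rose, by 1.52.

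Chemokine and cytokine genes were higher in 14 of 18 and lower in 2 (median 0.99), or in 1 without castrated replicates 4 and 5. Ccl5 rose by 3.14 and Ccl8 by 2.47. Cxcl5, a neutrophil attractant, had castrated signals of 3542, 1852, 1560, 189.7 and 23.1 against 11.9 to 80.7 in sham. The change of 3.43 (SE 0.864, adjusted p = 0.00260) became 4.44 without castrated replicate 5, 2.78 without castrated replicate 1 and 5.30 without castrated replicates 4 and 5. Complement genes were higher in 6 of 13 and lower in 2 (median 0.92), with C1qb at 2.02 (-0.04 on another probe set) and the inhibitor Cd59a at 1.98 above. Without castrated replicates 4 and 5, 1 complement gene was lower. C1ra gave -0.60 on its brightest probe set and 1.17 on another, both called.

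Interferon-induced genes were higher in 17 of 19 and lower in none (median 1.02). Ifit3, an antiviral protein, went from 46.5, 84.6, 120.6, 46.1 and 101.5 to 723.9, 637.9, 829.3, 889.6 and 336.8, a change of 2.92 (SE 0.277, adjusted p = 6.71e-08). Gbp2, a guanylate-binding protein, had sham signals of 110, 94.4, 85.2, 93.1 and 46.3 and castrated signals of 556.5, 469.2, 507, 480 and 668 (2.51), and Gbp3 rose by 2.34. Class I antigen presentation was higher in 10 of 13 (median 0.63), led by the immunoproteasome subunits Psmb9 (1.93) and Psmb8 (1.88), while B2m, the light chain, fell by 0.39 and H2-Q10 by 2.03.

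The core of the interferon-stimulated response element, GAAANNGAAA, was searched on both strands of the same windows. It occurred in 3.44% of all promoters and in 3.51% of tested genes. Of all calls it was in 4.45% of 1302 higher and 3.25% of 1046 lower genes. The share was 7.74% of 349 genes called higher at least 2-fold and 0 of 205 genes called lower at least 2-fold. Of 15 interferon-induced genes with a promoter, 10 held it (66.7%); the list was chosen for its known response, so this is a description of the list. The copies in the 3 named genes are shown with 5 flanking bases on each side, and those of Gbp3 overlap.

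Ifit3, chr19:34583368-34583387, minus strand: aagagGAAAgtGAAActtac
Ifit3, chr19:34583402-34583421, minus strand: aagtaGAAActGAAAcagac
Gbp2, chr3:142620599-142620618, minus strand: acagtGAAAgtGAAActaaa
Gbp3, chr3:142559994-142560013, minus strand: aaataGAAActGAAActgtg
Gbp3, chr3:142560000-142560019, minus strand: tctggGAAAtaGAAActgaa

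In the 250 bases before the Ifit3 start site (chr19:34583279-34583528, plus strand) both copies read TTTC on this strand, as shown in capitals.

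Ifit3: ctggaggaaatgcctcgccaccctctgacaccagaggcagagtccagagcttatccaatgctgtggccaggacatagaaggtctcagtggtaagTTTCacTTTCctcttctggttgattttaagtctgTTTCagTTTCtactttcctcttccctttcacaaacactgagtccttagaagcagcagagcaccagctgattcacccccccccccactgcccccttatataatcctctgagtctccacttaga

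**Figure D4:**
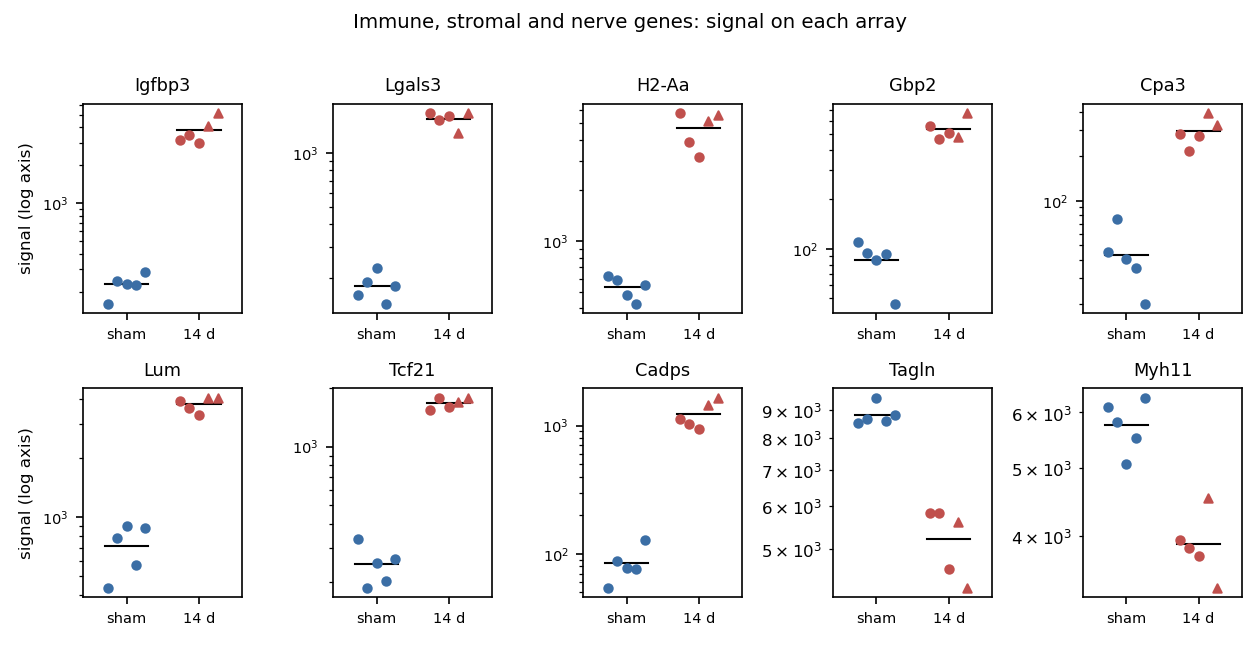
Signal on each array (log axis) for 10 immune, stromal and nerve genes in sham (blue) and castrated 14 days (red) glands; the black line is the mean of 5 mice and triangles mark castrated replicates 4 and 5. In 8 panels every castrated point lies above every sham point, and for the smooth muscle genes Tagln and Myh11 every castrated point lies below.

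Signalling genes changed singly more than as lists. Igfbp3, which binds insulin-like growth factors outside the cell, had the largest rise among the genes named by rule. Its signals were 161.3, 243.5, 228.6, 227.2 and 284.7 in sham and 3181, 3485, 2977, 4046 and 5133 after castration, a change of 3.96 (SE 0.233, adjusted p = 1.35e-10) or 15.6-fold. Igfbp6 rose by 1.42 and Igfbp4 by 1.33 (0.25 on another probe set), whereas Igfbp2 fell by 1.03, so the binding proteins did not share a direction. In that axis 4 of 9 were higher and 4 lower (median -0.09).

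Transforming growth factor beta and bone morphogenetic protein genes were higher in 9 of 19 and lower in 5 (median 0.26), or lower in 3 without castrated replicates 4 and 5. Gdf10 rose by 2.12 and Tgfbi, a matrix protein induced by this pathway, by 1.71, and Bmp7 fell from 812.6 to 1048 down to 193.9 to 358.9 (-1.49). Among epidermal, fibroblast and other growth factors and receptors 7 of 16 were higher and 4 lower (median 0.34), with Mdk, midkine, at 2.58 and Fgf1 at -1.09 beside the fall of Egf given above. Wnt, hedgehog and Notch genes were higher in 12 of 26 and lower in 5 (median 0.40), including Smo, the hedgehog transducer (2.21), and the Notch ligand Dll1 (1.47). Plxnd1, a semaphorin receptor of vessels and other cells, rose from 15.2 to 33.6 up to 270.3 to 427.5 (3.14).

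Cell death and division genes were called in both directions. Of 28 apoptosis regulators, 11 were higher and 4 lower (median 0.11), with Casp4, an inflammatory caspase, at 1.82, and Bid, a death agonist, at 1.70. Of 38 cell cycle and replication genes, 11 were higher and 6 lower (median 0.15). Stmn1, a microtubule regulator, rose by 1.28, while the mitotic genes Kif20a (-1.60) and Top2a (-0.98) were lower. Kif20a had 0.06 on a second probe set, and -0.99 without castrated replicates 4 and 5. Top2a signals were low in both groups (13.7 to 83.8 in sham and 7.9 to 34.8 after castration) and overlapped. G1 genes were higher in 9 of 20 and lower in 4 (median 0.25), and without castrated replicates 4 and 5 in 7 and 1. They include Gadd45b, a stress-induced growth regulator, at 3.36 (0.91 on another probe set), the cyclin Ccnd2 at 1.38 and the inhibitor Cdkn2d at 1.30.

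Clock-output and immediate early genes were higher in 14 of 27 and lower in 4 (median 0.38). Dbp, a transcription factor whose level follows the daily clock, went from 50.9, 181.6, 30, 95.4 and 110.9 to 733.8, 961.5, 977.9, 988.5 and 949.8, a change of 3.32 (SE 0.276, adjusted p = 1.19e-08). Bhlhe40, a clock repressor, rose by 2.60 and Per2, a core clock component, by 2.18, and Arntl, the activator that oscillates against them, fell by 0.72. The hour of tissue collection was not stated, and its part in these values was not tested.

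Housekeeping lists stayed near the middle. Of 20 cytoplasmic ribosomal protein genes, 2 were higher and 2 lower (median -0.06). Without castrated replicates 4 and 5 the counts were 2 higher and 8 lower (median -0.21). Respiratory chain genes were higher in 22 of 57 and lower in 6 (median 0.21), with Ndufb3 at 1.13, and proteasome genes in 10 of 35 and 3 (median 0.18).

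A few genes set the castrated glands apart from one another. Prol1, Cxcl5, Sbp, Svs2, Scgb1b27, Myh4, Pip and Lcn2 were among the 10 genes with the largest spread within the castrated group, and castrated replicate 5 was the lowest of its group in all 10. Scgb1b27, a secretoglobin, had castrated signals of 794.9, 4094, 3682, 734.6 and 53.6. Prol1, a proline-rich secreted protein, had 11932, 17020, 13462, 13307 and 52.7 after castration and 1021, 19730, 16359, 297.3 and 9.6 in sham. Sham replicates 2 and 3 were therefore as high in Prol1 as 4 of the castrated glands, and the change of 2.00 was not called (adjusted p = 0.433). Pip, a prolactin-induced secreted protein, was likewise highest in sham replicates 2 and 3 (1575 and 843, the others 12.3 to 37.8).

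**Figure D5:**
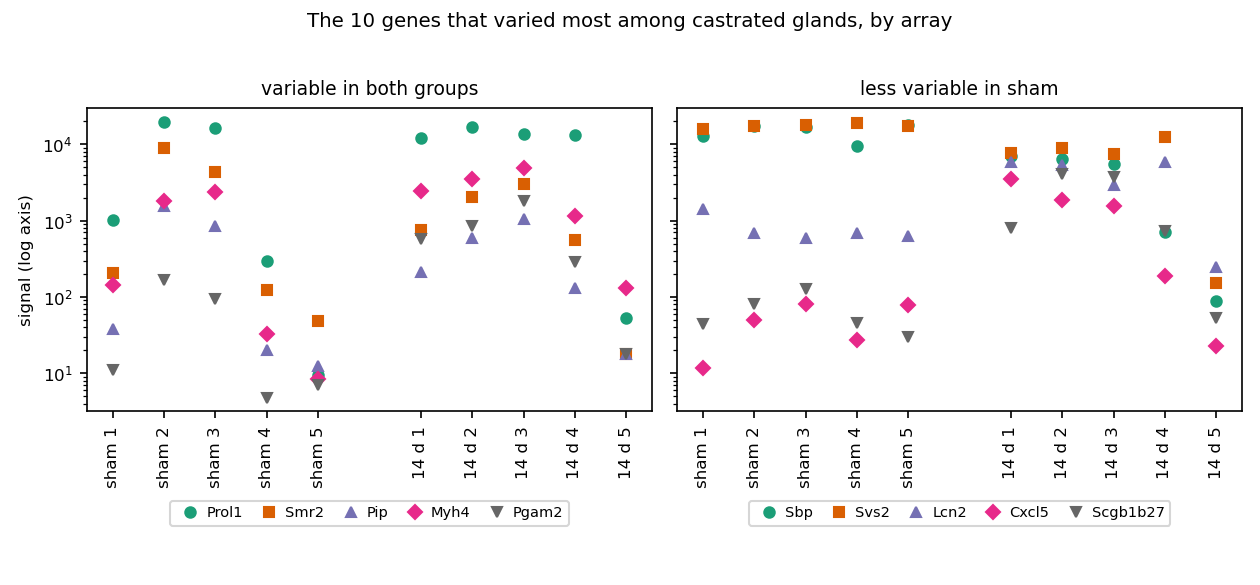
Signal on each array (log axis) for the 10 genes with the largest spread within the castrated 14 days group, 1 marker per gene. Left, genes that also vary over sham glands, high on sham replicates 2 and 3; right, genes less variable in sham, with castrated replicate 5 the lowest.

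Genes of neighbouring tissues varied in the same glands. Skeletal muscle genes sum to 7895 to 30320 in sham and 8417 to 55920 in castrated glands, and 5 of 24 were higher and 1 lower (median 1.10). Without castrated replicates 4 and 5, 11 were higher (median 2.00). Myh4, a myosin of fast muscle, had castrated signals of 2447, 3454, 4866, 1160 and 130 and sham signals of 142.8, 1796, 2343, 33 and 8.3, and its change of 2.68 was not called (adjusted p = 0.102), whereas without castrated replicates 4 and 5 it was 3.92 (adjusted p = 0.0408). Adipocyte genes were higher in 5 of 11 and lower in 3 (median 0.74), or lower in 1 without castrated replicates 4 and 5. Those that rose include Retn, resistin (2.99), Car3, a carbonic anhydrase of fat and muscle (3.12), and Adipoq, adiponectin (2.02). Their summed signals were 4447 to 6851 in sham and 7210 to 12530 after castration.

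All 4 genes of the erythroid list that were tested were higher (median 1.20), with Hbb-b2 at 1.52 and Hba-a1 at 1.13. The others were Car2, a carbonic anhydrase already at 3356 to 4341 in sham (1.27), and Alas2 (0.75), whose groups overlapped. Genes of the urothelial list were higher in 4 of 7 and lower in 1 (median 0.59), led by the keratins Krt6a (1.24) and Krt4 (1.22). Upk2, the uroplakin used as a urothelial marker, rose by 0.59 (adjusted p = 0.0277) with overlapping groups. Its signals were 150.7 to 347.7 in sham and 169.1 to 430.1 after castration. Genes of epididymis and testis were lower in 4 of 5 (median -0.62). The part of muscle, fat, blood and urothelium in the changes of stromal, vessel and nerve genes was not tested.

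The 3-day castrated glands show which of these differences were larger by 14 days. The 14-day and 3-day changes share the sham arrays, so the contrast of 14 days against 3 days, from the same model, is the test of their difference. Fcgbp had -0.07 from sham at 3 days, and from 3 to 14 days it fell by 4.32 (SE 0.225, adjusted p = 7.73e-11). The same contrast was -2.61 for Egf, -2.76 for Agr2, -2.08 for Mt1 and -2.79 for Traf1, whose changes at 3 days were 0.01, -0.11, -0.33 and -0.11. Each contrast had an adjusted p of 1.25e-06 or less. All include 14-day replicates 4 and 5, and the contrasts without these arrays are not given. Without them the 14-day change from sham was -4.34 for Fcgbp, -2.01 for Egf, -2.53 for Agr2, -2.38 for Mt1 and -3.08 for Traf1. The gap in running numbers also lies between the 3-day and 14-day arrays, so a batch cannot be told apart from time. Msmb had already changed by -3.43 at 3 days and fell by a further 3.06 (adjusted p = 3.88e-05). Ccl5 was at -0.06 at 3 days and 3.20 higher at 14 days than at 3 days (adjusted p = 6.27e-07), and H2-Aa at 0.98 and 2.11 higher.

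Other genes had most of their 14-day change at 3 days. Pfkfb3 changed by -1.92 at 3 days, with a 14-day minus 3-day difference of -0.13 (adjusted p = 0.631). Dbp was at 2.84, with a difference of 0.48 (adjusted p = 0.178), Ccl8 at 2.34, with 0.13 (adjusted p = 0.823), and Fkbp5 at -0.90, with -0.32 (adjusted p = 0.0896). A p that misses the threshold does not show that these levels were equal. Cd52 went the other way, at -2.29 from sham at 3 days and 0.95 higher at 14 days than at 3 days (adjusted p = 0.00248).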

How the data were processed

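The authors deposited linear intensities for each probe set and array. MAS5 (version 5.0) is named in the submitters' processing notes. Array means without the lowest and highest 2% lay between 499.37 and 499.92, so each array had been scaled before the values were deposited by the authors. Of 12488 probe sets, 66 controls were left out. Symbols came from GEO's annotation of the array: 10833 probe sets had 1, 396 several and 1193 none, and 10817 were matched to RefSeq with no change.

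Values were taken as log2 of the signal plus 12.7, the 10th percentile of all values. A probe set entered the tests if 5 or more of the 20 arrays read above 191.0, the median over the whole table. All 4 groups entered 1 linear model with moderated two-sided tests (limma 3.58.1, R 4.3.3), which was tested on simulated data. The precision is limited by the 5 arrays per group. A gene with several probe sets is represented by the one of highest mean signal.

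The members and the 53 gene lists were chosen with earlier results of these data known. Genes were named by rule: the 15 largest rises and falls among called probe sets with 1 symbol, no overlap between groups and the higher mean above 191.0; the 3 largest called changes of each list and up to 2 called against its median; a set with Pbsn, Msmb, Fkbp5, Clu, Igfbp3, Krt8, Krt18, Acta2, Hspa5, Egf, Odc1 and Cd74; and the 10 genes most variable within the castrated group. A selection is given. Named after their values were seen were Azgp1, Apof, Ltf, Igfbp2, Hoxb13, Krt19, Hsp90b1, Creld2, Dnajc3, Ero1b, Canx, Foxa1, Arntl, Cldn8, Col1a2, Col6a1, Mfge8, Slc25a1, Ceacam1, Cst3, Pigr and Cdh1, and standard markers of cell types were named as such. Promoters are those of RefSeq on GRCm38.p6. Protein sequences were not used here. Alternatives were the pseudocount, the filter, the scaling, array weights, the prior, the samples fitted and each array left out.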

Additional observations from a re-analysis of the deposited data

Results flagged for a closer look

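Among the genes named, 372 groups of 5 arrays were examined for an array whose gap to its nearest neighbour exceeded 0.71 of the group's range, and 32 had one. Chance gives about 5% of groups when genes are not selected. The genes named include some chosen for their spread within the castrated group, such as Prol1, Svs2 and Lcn2. The count of 32 therefore cannot be judged against that 5%. Castrated replicate 5 accounts for 13 of the 32 and sham replicate 1 for 8. What sets these arrays apart was not tested.

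Castrated replicate 5 was the lowest of its group for Prol1 (52.7, the others 11932 to 17020), Svs2 (151.1), Lcn2 (244.5), Ltf (66.7) and Ero1b (138.1). It was also the lowest for the secretory genes Hspa5 (3165.4), Man2a1 (1107.7) and Lman1 (937.8), for the stromal and vessel genes Cnn1 (1207.2), Cldn5 (360.3) and Notch4 (67.5), and for Igfbp2 (258.0) and Bmp7 (193.9). Its Gapdh ratio was 1.82 on the log2 scale.

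Sham replicate 1 was the highest of its group for the folding genes Creld2 (12260.8), Pdia4 (3355.2) and Ero1b (1134.4), and for Lcn2 (1437.1), Cnn2 (542.4) and Col3a1 (1073.6). It was the lowest for Krt18 (4343.8) and Pbsn (14179.6).

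Sham replicate 4 was low for Wfdc2 (38.9) and for the fat genes Adipoq (138.3) and Car3 (85.5), and high for B2m (17263.8). Single values stood apart for Psmb9 in sham replicate 2 (302.0), Pecam1 in sham replicate 3 (40.9), and Csf1r (348.9) and Cd59a (181.8) in sham replicate 5. Among castrated glands the others were Dbp in replicate 1 (733.8), Ceacam10 in replicate 2 (38.7) and Canx in replicate 4 (625.9).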

How the results depend on the processing

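Over 21 alternatives the count of higher probe sets lay within 1.5 times its value of 1979, at 1658 to 2319, and that of lower ones did so in all but 1: without a filter on low values 2690 were lower, against 1679, with all 12422 probe sets tested. Leaving out each array in turn gave 1834 to 1941 higher and 1504 to 1703 lower. Of 186 of the genes named, 170 kept their call and direction in every alternative. The exceptions besides those given with their values above were Krt18, Cst3 and Myh4, called higher in 1, 3 and 5 alternatives, Cdh1, called lower in 4, and Ltf and Svs2, whose calls ended when only the arrays compared entered the model. Canx, not called in any, had 0.01 and turned negative without castrated replicates 4 and 5 and without all arrays of high Gapdh ratio (-0.042), with each array centred on its median (-0.018), with quantile normalization (-0.074) and with array weights (-0.052), and ranged from -0.076 to 0.088 with single arrays left out. Of 52 list medians, 45 kept their sign. The others (luminal, smooth muscle, transcription factors, cholesterol, ribosomal, glutathione and insulin-like growth factor genes) lay near 0 throughout, between -0.206 and 0.248. A median that kept its sign could still move in size. That of skeletal muscle was 1.10 with all arrays and 2.00 without castrated replicates 4 and 5. The causes were not tested. No paired analysis was possible because the labels give no replicate numbers. Signals close to background limit the changes of genes below about 100 in both groups.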
